A study of Mus musculus with 8 samples.

Results

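The 10 genes described here store iron, break down heme or defend cells against oxidants. They were taken as a fixed list (Fth1, Ftl1, Hmox1, Blvrb, Slc40a1, Tfrc, Slc7a11, Gclm, Prdx1 and Txnrd1) from the 30406 genes that all libraries shared, and all 10 were found. The list was chosen with earlier results of these data known. Their transcripts were counted in leukocytes sorted from brain parenchyma, pia mater and dura mater of adult male C57BL/6 mice. An antibody against CD45 was given intravenously before perfusion and the sorted cells were CD45iv-CD45+, that is, tissue leukocytes that the antibody in the blood had not reached. Control brain, control pia and control dura each had 1 library; for control pia 1 label reads brain and the others read pia, and it was taken as pia. After transient middle cerebral artery occlusion (MCAO), a model in which a filament blocks an artery of the brain and is then withdrawn, brain had 2 libraries at 24 h and 1 at 72 h, and pia and dura had 1 library each at 24 h. The control mice were naive, without a sham operation, so every comparison with MCAO also holds the anaesthesia and surgery. The cells came from mice that were pooled, with a number stated per compartment and not per library, so the spread between libraries is the only error available and it may be partly technical.

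Iron enters most cells bound to transferrin through the transferrin receptor (Tfrc), is stored in ferritin cages built from a heavy chain (Fth1) and a light chain (Ftl1), and leaves through ferroportin (Slc40a1). Macrophages also receive iron from heme, which heme oxygenase 1 (Hmox1) opens to biliverdin, carbon monoxide and free iron. The gene of biliverdin reductase B (Blvrb) is counted here with the heme genes. Free iron feeds oxidant chemistry, which is met by glutathione, made from cystine imported by Slc7a11 with a rate-limiting ligase whose modifier subunit is Gclm, and by the peroxiredoxin and thioredoxin systems, here Prdx1 and the reductase Txnrd1. Many of these genes are targets of the transcription factor NRF2, and the messenger RNAs of the iron genes are bound by iron regulatory proteins when cells lack iron.

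The binding site of those proteins, the iron responsive element, is a hairpin with the loop CAGTG, and it is shown because it separates the iron genes among the members from the rest. The 5′ and 3′ UTRs of GENCODE vM21 transcripts (build GRCm38) were searched on the transcript strand for a C, any 5 bases, CAGTG, 1 base and 5 bases that pair with the first 5. The capitals mark the loop.
Fth1, 5′ UTR, chr19:9982733-9982759, plus strand: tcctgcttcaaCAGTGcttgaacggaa
Ftl1, 5′ UTR, chr7:45459780-45459806, minus strand: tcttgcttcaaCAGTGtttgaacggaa
Slc40a1, 5′ UTR, chr1:45925466-45925492, minus strand: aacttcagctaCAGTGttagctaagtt
Tfrc, 3′ UTR, chr16:32631220-32631246, plus strand: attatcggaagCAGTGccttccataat
A match lay in the 5′ UTR of 3 of the 10 members, against 0.152% of 20408 genes with a 5′ UTR, and in the 3′ UTR of Tfrc alone among the members, against 0.616% of 20944 genes. Tfrc held 4 such matches, of which the first is printed. The other 6 members had no match of these letters.

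A second search looked for the core of the antioxidant response element, TGACNNNGC, on both strands of RefSeq promoter windows of GRCm38.p6 that ran from 250 bases before to 50 bases after each gene's start. Windows were matched for 8 members, without Hmox1 and Slc40a1, and 2 of the 8 held the core, against 12.5% of 27025 windows. Both matches are printed with the core in capitals, on the minus strand of the genome.
Gclm, chr3:122245415-122245439: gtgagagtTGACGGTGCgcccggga
Prdx1, chr4:116685458-116685482: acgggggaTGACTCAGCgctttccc
These are matches of letters, and binding was not measured. In the same annotation all 10 members are protein-coding genes, among them Hmox1 (ENSMUSG00000005413) at chr8:75093621-75100589 on the plus strand, Blvrb (ENSMUSG00000040466) at chr7:27447978-27466144 on the plus strand, Slc7a11 (ENSMUSG00000027737) at chr3:49892526-50443614 on the minus strand and Txnrd1 (ENSMUSG00000020250) at chr10:82833951-82897712 on the plus strand.

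Libraries held between 6591898 and 20754181 UMIs (unique molecular identifiers, each standing for 1 captured RNA molecule), with a median of 1083 to 2505 UMIs per cell. The deposited annotation places 32457 cells of 36854 barcodes in 21 clusters. Levels are given as CPM, the gene's UMIs scaled to a fixed total of the UMIs of a cluster in a library, for clusters with at least 30 cells there, which left 112 of 168 combinations; intervals are exact 95% Poisson intervals and cover counting error only. At most 32 annotated barcodes were shared by any pair of libraries, 0.816% of the smaller. The counts come from 2 gene lists: the 72 h library and the second brain library at 24 h (replicate 2) were counted over 31053 genes and the other 6 libraries over 32285. Kit version 3 is listed for brain at 72 h and dura at 24 h and version 2 for the others, but the barcodes go against that listing. Brain at 24 h replicate 2 shared 8 annotated barcodes with brain at 72 h and 0 with each other library, whereas dura at 24 h shared 12 to 27 with each of the other 5 libraries of the longer gene list and 1 with brain at 72 h. The libraries with barcodes of their own were thus those of the shorter gene list, and no result here rests on the listed kit.

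The shorter gene list moved with the level of the ferritin light chain and has to be read before any of the results. In T cells (Tc) Ftl1 stood at 797 and 961 CPM in the libraries of the shorter list and at 3977 to 5005 CPM in the other 6. In 13 of the 14 clusters that could be compared, both libraries of the shorter list lay below every other library for Ftl1, with a median ratio of 0.266. Prdx1 lay below in 9 of 14 clusters, with 233 and 267 CPM against 514 to 981 CPM in T cells. Tfrc lay above in 6 of 14 and Txnrd1 in 4, whereas Fth1 lay below in 3 and Hmox1 below in none. The pseudogene Ftl1-ps1, a near copy, was lower in these libraries too, at 18.3 and 42.2 CPM against 69.4 to 93.7 CPM in the rest. These counts cannot show whether reads were lost between the copies, and genes outside the shared list were not examined. Whether the gene list, the animals or the sequencing set these levels was not tested, so single values of Ftl1 and Prdx1 are compared between times only within 1 gene list. The fits over control and 24 h libraries hold both gene lists, also for these 2 genes. Results that change without brain at 24 h replicate 2 are given both ways.

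**Figure D1:**
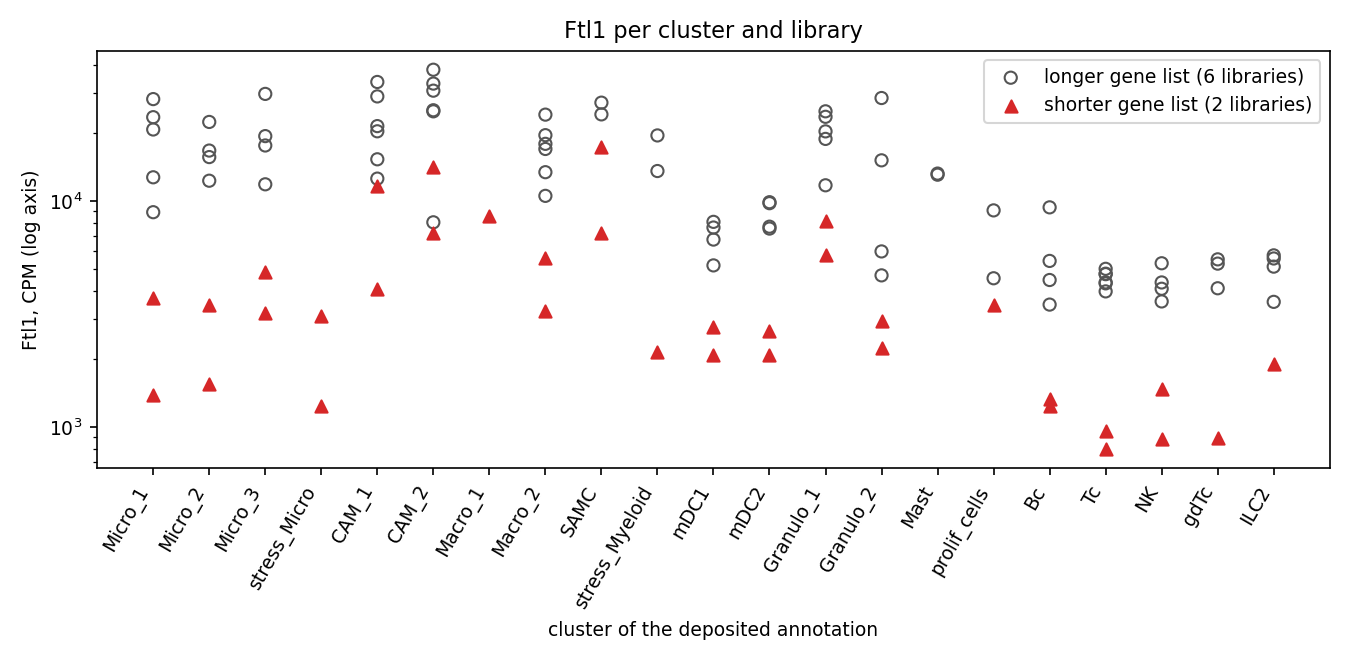
Ftl1 per cluster (x axis) and library (points) in CPM on a log axis. Triangles are the 2 libraries of the shorter gene list and circles the other 6; in 13 of the 14 compared clusters both triangles lie below all circles.

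Ferritin was high in macrophages, granulocytes and the stroke-associated cluster and low in lymphocytes. The mean Fth1 level was 16526 ± 4676 CPM (SD, n = 4 libraries) in SAMC, the cluster that the study calls stroke-associated myeloid cells. Then followed Granulo_2 at 12724 ± 11933 CPM (n = 6), CAM_2, CNS-associated macrophages, at 12645 ± 6150 CPM (n = 8), Granulo_1 at 11544 ± 5560 CPM (n = 7), Macro_2 at 10884 ± 2873 CPM (n = 8) and CAM_1 at 9594 ± 4955 CPM (n = 8). Neighbours in this order differed by less than their spread. The SAMC mean holds no control and no dura library, whereas those of CAM_1, CAM_2 and Macro_2 hold all libraries, so the order depends on which libraries enter. Within brain at 24 h CAM_2 lay above SAMC, at 21933 against 16282 CPM in replicate 1 and 11814 against 10883 CPM in replicate 2. SAMC lay above CAM_2 in brain at 72 h, at 22330 against 20621 CPM, and in pia at 24 h, at 16611 against 13986 CPM. Macro_1 reached 30 cells in brain at 72 h only and had 18705 CPM there.

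The lowest Fth1 levels were those of B cells, at 2373 ± 744 CPM (n = 6), mast cells at 2492 ± 27.8 CPM (n = 2) and T cells at 2668 ± 581 CPM (n = 8). Micro_1, Micro_2 and Micro_3 lay between, from 3802 ± 1450 CPM in Micro_2 (n = 6) to 5802 ± 2307 CPM in Micro_3 (n = 6). Clusters were made from the same counts, so no cluster was tested against another. Ftl1 was highest in CAM_2, at 22608 ± 11590 CPM (n = 8), SAMC, at 18946 ± 8835 CPM (n = 4), and CAM_1, at 18448 ± 9608 CPM (n = 8), and here the spread includes the gap between gene lists. Its order differed from that of Fth1 further down: mast cells had 13114 ± 105 CPM (n = 2) of Ftl1 and were 8th of 21 clusters, against 20th for Fth1, and Granulo_2 was 11th, against 3rd for Fth1. Within a library, Ftl1 in SAMC was 5.70, 9.03 and 18.1 times its T cell level in both 24 h replicates of brain and in brain after 72 h. For Fth1 the same ratios were 6.94, 5.14 and 11.7. The last 2 of these libraries are those of the shorter gene list, where T cells had 797 and 961 CPM of Ftl1. The other libraries had 3977 to 5005 CPM in T cells, so the Ftl1 ratios still hold the gap where it differs between clusters.

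**Figure D2:**
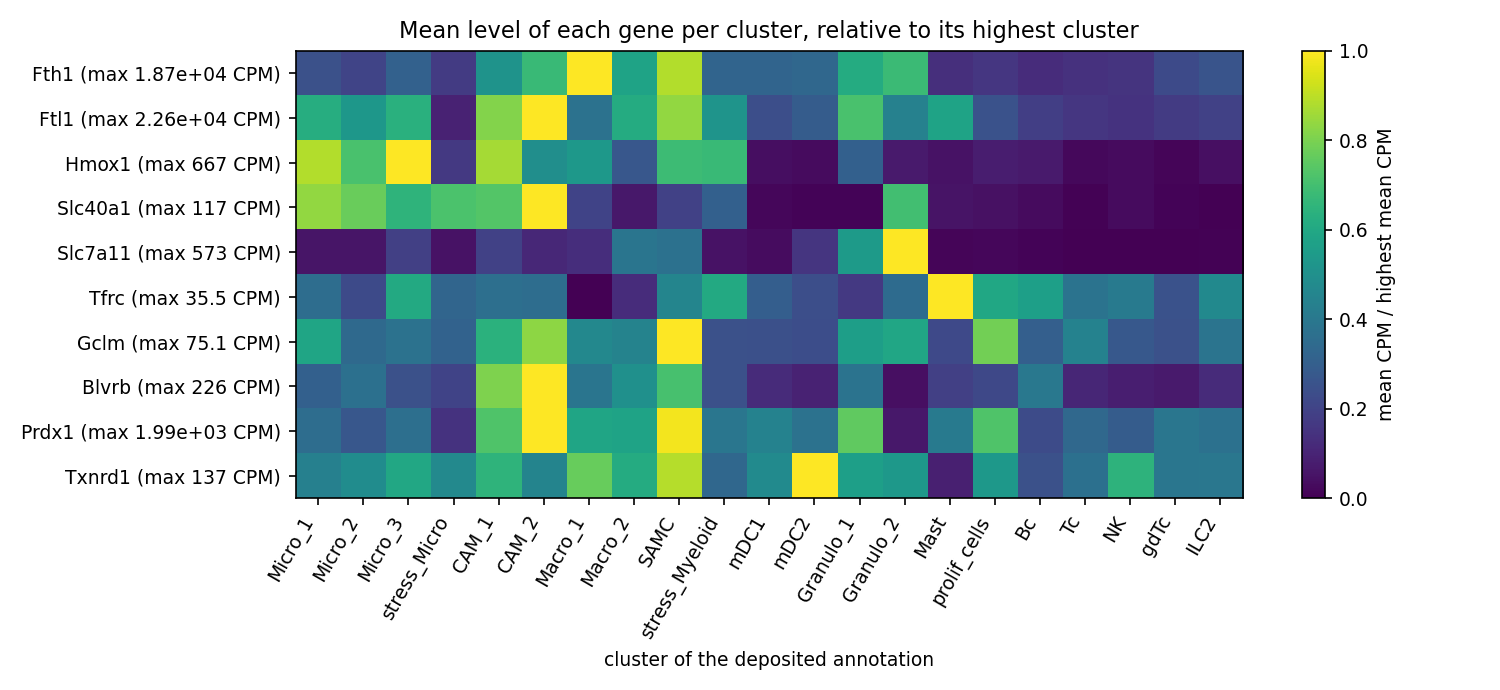
Mean CPM of the 10 genes (rows) in 21 clusters (columns), each row divided by its highest cluster, whose mean is printed beside the name. The myeloid clusters hold the bright cells for Fth1, Ftl1, Hmox1, Blvrb and Prdx1, and Slc40a1 and Slc7a11 are near 0 in the lymphoid clusters.

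Granulo_2 spanned the widest range of Fth1 of the 21 clusters. Its level was 34255 CPM in brain at 24 h replicate 1, 8087 CPM in replicate 2, 8208 CPM in brain at 72 h, 18740 CPM in pia at 24 h, 4295 CPM in dura at 24 h and 2760 CPM in control dura. Granulo_1 went from 4533 CPM in control dura to 19691 CPM in brain at 24 h replicate 1. Both dura libraries were thus the lowest in both clusters, and brain at 24 h replicate 1 the highest. The 5 neutrophil markers checked (S100a8, S100a9, Retnlg, Mmp9, Csf3r) were detected in all 7 libraries with enough cells of these clusters, and their sum was lowest in brain at 24 h replicate 1, at 18798 CPM, and highest in dura at 24 h, at 152771 CPM. Their part in the ferritin range was not tested.

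Transcripts of Hmox1 and Blvrb were higher in the meninges than in control brain and brain at 24 h among cells of the macrophage clusters. Taking CAM_1, CAM_2, Macro_1 and Macro_2 together, Hmox1 was measured at 107 CPM in control brain, 161 and 186 CPM in brain at 24 h, 308 CPM in control pia, 701 CPM in pia at 24 h, 478 CPM in control dura and 541 CPM in dura at 24 h. All 4 meningeal libraries lay above these 3 brain libraries. For this and the other separations of tissues given here, the share of all genes that separate in the same way was not counted. Brain at 72 h, which was not part of the test, had 278 CPM, below the 4 meningeal libraries too. In the model with terms for tissue and MCAO, Hmox1 was 4.88-fold higher in the meninges (log2 fold change 2.29 ± 0.34 SE, adjusted p = 0.0260 by edgeR's quasi-likelihood test with Benjamini-Hochberg adjustment), and Hmox1 was called by DESeq2 too (adjusted p = 2.56e-08). Blvrb was 3.10-fold higher (log2 1.63 ± 0.32, adjusted p = 0.0448), with 65.0 CPM in control brain, 99.2 and 83.6 CPM in brain at 24 h, 181 and 142 CPM in pia and 222 and 217 CPM in dura. At 72 h brain had 171 CPM of Blvrb, above pia at 24 h, so with that library the tissues overlapped. In a fit with brain at 72 h, where 2.91% of genes were called, Hmox1 passed (log2 2.09, adjusted p = 0.0334) and Blvrb did not (log2 1.33, adjusted p = 0.127). These are 2 of the 10 members, where 3.65% of 9486 genes tested were called in this comparison; DESeq2 called 10.7% of all genes and the same 2 members.

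The other 8 members did not pass, with log2 fold changes from -1.03 for Tfrc to 1.27 for Txnrd1. Without brain at 24 h replicate 2 the test called 35.9% of all genes and 4 of the members: Hmox1 (log2 2.32 ± 0.25), Txnrd1 (1.65 ± 0.31, adjusted p = 0.00499 by edgeR), Blvrb (1.57 ± 0.23) and Ftl1 (0.81 ± 0.24, adjusted p = 0.0292 by edgeR). Conversely, leaving out any of the other 6 libraries left none of the members called. None was called either with CAM_2 and Macro_2 only or with brain and pia only. The calls over all genes fell as well. Without brain at 24 h replicate 1 they were 64 higher and 61 lower of 9500 genes, and with CAM_2 and Macro_2 only 53 and 26 of 8998. In the remaining fits of this kind no gene was called. The Hmox1 estimate stayed between 1.80 and 2.49.

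The brain cells filed under these macrophage clusters carried other markers than the meningeal ones. The 5 microglia markers (Tmem119, P2ry12, Sall1, Siglech, Sparc) were all detected in every brain library and the list summed to 10112 CPM in control brain and 2473 and 577 CPM at 24 h, against 146 to 258 CPM in pia and dura, where Sall1 was at or near 0. The 5 border macrophage markers (Pf4, Lyve1, Mrc1, Cbr2, F13a1) summed to 20.7 to 532 CPM in these brain libraries and 2684 to 3883 CPM in pia and dura. In control brain the markers thus go against the name of the clusters, and macrophage refers here to the authors' clusters. What part the kind of cell had in the tissue difference was not tested.

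Some other genes of the pathways also differed between tissues. From lists of 114 further genes, chosen with earlier results of these data known, 98 were tested, and edgeR with adjustment over all genes called 10 of them, all higher in the meninges, beside 3.65% of all genes. DESeq2 called 23 higher and 2 lower, beside 10.7% of all genes. Without brain at 24 h replicate 2, edgeR called 37 higher and 12 lower, beside 35.9%; the 12 included 5 of the heme list, among them the heme transporter Slc46a1 (log2 -2.95 ± 0.27) and Abcb6 (-2.26 ± 0.33). With all 7 libraries the iron list had 1 of 23 called, Cp, the copper ferroxidase ceruloplasmin (log2 3.56 ± 0.72), and in the heme list 1 of 22, Spic, a transcription factor of red pulp macrophages (4.80 ± 0.65). The brain side of these fold changes rests on few counts. In control brain and the 24 h replicates of brain there were 2, 5 and 18 UMIs of Cp and 2, 1 and 3 UMIs of Spic. In the glutathione list 3 of 17 were called: Gpx3, a secreted glutathione peroxidase (8.03 ± 0.63), Mgst1 (3.66 ± 0.46) and Gstm1 (2.80 ± 0.31), both glutathione transferases. Gpx3 rested on 2, 3 and 3 UMIs in control brain and the 24 h replicates of brain. With brain at 72 h, which was not part of the test, the tissues overlapped for Mgst1 and Gstm1. That library had 57.8 CPM of Mgst1, against 31.2 and 34.1 CPM in control pia and pia at 24 h. Its Gstm1 was at 42.0 CPM, against 41.8 CPM in pia at 24 h.

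The oxidant defence list had 3 of 21, Mt1, a metallothionein (2.64 ± 0.43), mitochondrial superoxide dismutase Sod2 (2.46 ± 0.49) and the selenoprotein Selenow (2.20 ± 0.39), and the NRF2 list 2 of 15, Nfe2l2, which encodes NRF2 itself (1.74 ± 0.31), and its partner Maff (2.50 ± 0.41). The medians of the lists were 0.42, 0.41, 0.40, 1.02 and 0.20, that of the members 0.85 and that of all genes tested -0.14. As lists and members were chosen with earlier results of these data known, these medians are descriptions only. Cd163, the receptor that takes up hemoglobin bound to haptoglobin, stood at 189 to 256 CPM in the 4 meningeal libraries and at 3.02, 0 and 21.2 CPM in the brain libraries.

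Between the meninges themselves no member was called: edgeR called 0 of 9486 genes (0%) for dura against pia. At an unadjusted p under 0.05 there were 169 genes, none of them members, and DESeq2 called 14, also without a member. Without brain at 24 h replicate 2, 0.839% of genes were called, again with no member. The largest log2 fold change was that of Slc40a1, at 41.1 and 21.2 CPM in pia and 83.0 and 43.3 CPM in dura (log2 1.05 ± 0.46).

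**Figure D3:**
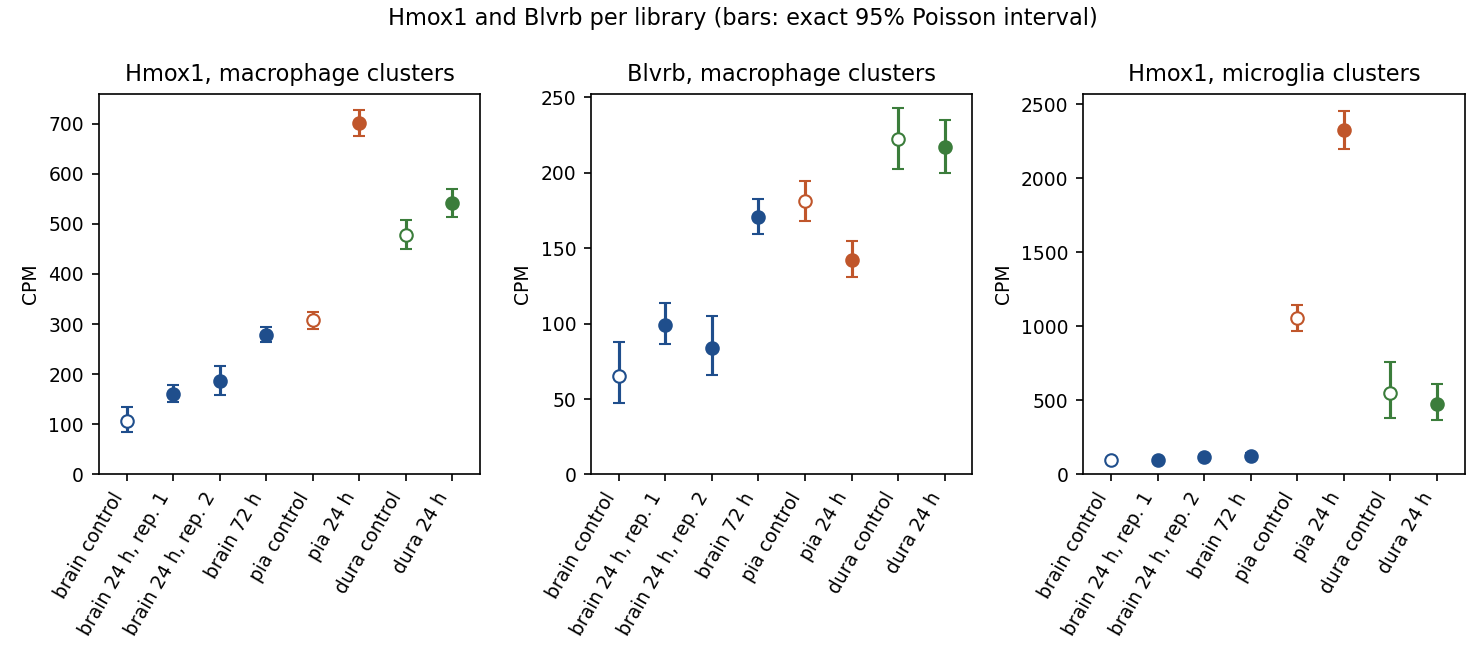
Hmox1 and Blvrb in the macrophage clusters and Hmox1 in the microglia clusters, in CPM for each library (x axis; open points are controls, colours are tissues, bars exact 95% Poisson intervals). Macrophages of pia and dura lie above those of control brain and brain at 24 h for both genes, brain at 72 h has 278 CPM of Hmox1 and 171 CPM of Blvrb, and microglia clusters of pia reach 2325 CPM of Hmox1.

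Cells of the microglia clusters in pia held more Hmox1 than those in brain. Summed over Micro_1, Micro_2, Micro_3 and stress_Micro, the level was 95.7 CPM in control brain, 96.3 and 116 CPM in brain at 24 h and 128 CPM at 72 h, but 1054 CPM in control pia (293 cells) and 2325 CPM in pia at 24 h (330 cells). The share of cells with at least 1 Hmox1 UMI, after thinning each cell to 1000 UMIs, was 8.09% in control brain (exact Clopper-Pearson 95% interval 7.22 to 9.04%) and 118 of 236 cells in control pia (43.4 to 56.6%). Without thinning the shares were 12.5% and 57%. Lymphoid cells, which give the background, had 0 of 53 in control brain, which allows a share of up to 6.72%, and 1.51% (0.312 to 4.34%) in control pia. The intervals of pia and brain did not overlap. Each tissue rests on 1 control library, and the levels across tissues were tested in the macrophage clusters only.

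The label of these cells was checked against markers. In pia the 5 microglia markers summed to 5252 CPM in control and 2209 CPM at 24 h, with Tmem119 at 1203 and 1028 CPM, and the border macrophage markers to 806 and 846 CPM. In brain the border markers summed to 2.46 to 26.2 CPM. In dura the few cells of the clusters (51 and 76) had 973 and 449 CPM of microglia markers and 4043 and 1610 CPM of border markers, which goes against the label, so they are called dura cells of the microglia clusters here. Their Hmox1 levels were 547 and 479 CPM. The immediate early and heat shock genes that mark dissociation (Fos, Jun, Atf3, Hspa1a, Dusp1) summed to 21907 CPM in the microglia clusters of control pia and to 35214 CPM in those of control brain, and Hspa1a alone was at 1304 and 138 CPM; its part in the Hmox1 level was not tested.

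Among single clusters, CAM_1 had 144 CPM of Hmox1 in control brain, 461 CPM in control pia and 1080 CPM in control dura, and 143 and 200, 1116 and 1096 CPM at 24 h, so the tissues did not overlap. In CAM_2 they did, with 353 CPM in brain at 24 h replicate 2 and 262 CPM in control dura. Lymphoid clusters and dendritic cells were far lower, with means from 8.86 CPM in gdTc to 47.7 CPM in Bc, and 19.1 CPM in mDC2. Hemoglobin transcripts, a sign of red cell RNA, had another order over the libraries. In the macrophage clusters the 5 erythrocyte markers (Hba-a1, Hba-a2, Hbb-bs, Hbb-bt, Alas2) were all at 0 in control brain, brain at 24 h replicate 1 and control pia, and summed to 1.74 CPM in pia at 24 h, 11.0 CPM in control dura, 316 CPM in dura at 24 h, 752 CPM in brain at 24 h replicate 2 and 250 CPM at 72 h.

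After MCAO the cystine importer Slc7a11 had the largest difference of the members. In the macrophage clusters it stood at 3.02 CPM in control brain, 23.9 CPM in control pia and 27.1 CPM in control dura, and at 271 and 179 CPM in brain, 186 CPM in pia and 181 CPM in dura at 24 h. The 4 libraries at 24 h lay above all 3 controls, as 7% of the 9486 genes tested did in either direction. The estimate was 11.5-fold (log2 3.52 ± 0.65), which did not pass by edgeR (adjusted p = 0.945). No gene of this comparison did (0%), while 459 genes had an unadjusted p under 0.05. DESeq2 called 0.169% of genes and Slc7a11 among them (adjusted p = 6.01e-06), and edgeR without brain at 24 h replicate 2 called 1.79% of genes, again with Slc7a11 (log2 3.25 ± 0.42, adjusted p = 0.0308). That fit had 2 residual degrees of freedom. It held no replicate libraries within a tissue and time, so its error holds no spread between replicates.

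Slc7a11 also separated the 24 h libraries from the controls in the microglia and dendritic cell clusters. In microglia Slc7a11 was at 5.24 CPM in control brain, 24.2 CPM in control pia and 0 in the 51 control dura cells, where 3 counts would be 45.6 CPM, and at 45.9 and 37.9 CPM in brain, 203 CPM in pia and 52.4 CPM in dura at 24 h. These lay below the macrophage clusters in brain and dura at 24 h, and slightly above them in pia and control brain, where the intervals overlapped. The groups did not overlap, as for 4.98% of genes tested. The log2 fold change was 3.05 ± 0.51 (adjusted p = 0.756 by edgeR, where 0% of 6847 genes and 0 members were called and 181 genes had an unadjusted p under 0.05). DESeq2 called it with 0.102% of genes (adjusted p = 3.58e-04), and so did edgeR without replicate 2 (3.02 ± 0.28, adjusted p = 6.77e-07), where 5.08% of genes were called. By cluster, brain Micro_3 went from 4.64 CPM in control to 167 and 111 CPM at 24 h, and Micro_2 from 3.20 to 15.3 and 12.7 CPM. Micro_1 went from 6.90 to 15.8 and 6.89 CPM, the last from 3 UMIs. The dura value at 24 h lay close to the floor of 3 counts in control dura, and 3.95% of its 76 cells held a UMI.

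In dendritic cells (mDC1 and mDC2) control brain had too few cells, so the fit used 6 libraries and the brain libraries at 24 h did not inform the effect of MCAO. Slc7a11 was at 15.9 CPM in control pia and 14.1 CPM in control dura, and at 64.8 and 49.7 CPM in brain, 118 CPM in pia and 98.1 CPM in dura at 24 h. The groups did not overlap, as for 16.9% of genes tested. The log2 fold change of 2.77 ± 0.47 did not pass by edgeR (adjusted p = 0.9996, 0% of 6950 genes called and 178 at an unadjusted p under 0.05) or by DESeq2, which called 2 genes. Without replicate 2 it passed by edgeR (2.79 ± 0.31, adjusted p = 1.84e-05), where 1.34% of genes were called. That fit had 1 residual degree of freedom and no replicate libraries.

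**Figure D4:**
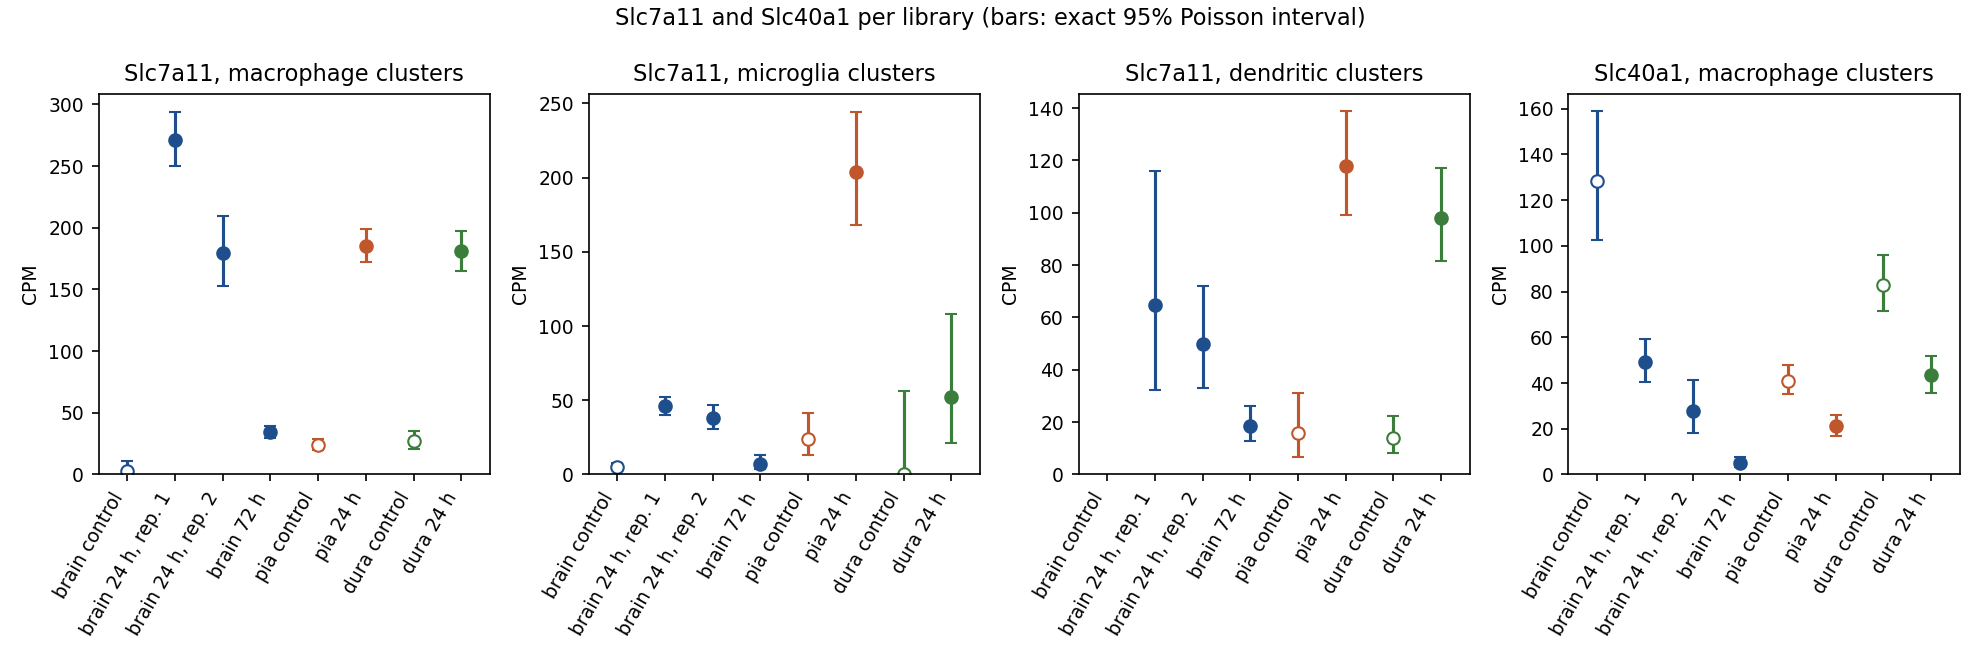
Slc7a11 in the macrophage, microglia and dendritic cell clusters and Slc40a1 in the macrophage clusters, in CPM for each library (x axis; open points are controls, filled points MCAO, bars exact 95% Poisson intervals). In macrophages the Slc7a11 values at 24 h, 179 to 271 CPM, lie above those of the controls and of brain at 72 h; control brain had too few dendritic cells to plot.

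The highest mean Slc7a11 levels were those of the granulocyte clusters. In Granulo_2 the level was 1693 CPM in brain at 24 h replicate 1, 330 CPM in replicate 2, 811 CPM in pia at 24 h, 214 CPM in dura at 24 h and 133 CPM in control dura. Granulo_1 had 1221 and 143 CPM in brain, 525 CPM in pia and 154 CPM in dura at 24 h, against 11.1 CPM in control pia and 79.1 CPM in control dura. Both clusters together had 26.0 CPM in control pia, from 3 UMIs, and 117 CPM in control dura, and 1290 and 213 CPM in brain, 567 CPM in pia and 199 CPM in dura at 24 h. The groups did not overlap, as for 14.3% of genes tested, but the brain libraries at 24 h had no control of their own tissue among them.

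The test of these sums was added after the values were seen, and as control brain held too few granulocytes it used 6 libraries. As in dendritic cells, the brain libraries at 24 h thus did not inform the effect of MCAO. The log2 fold change of Slc7a11 was 2.29 ± 1.06 and did not pass by edgeR (adjusted p = 0.999, 0% of 6228 genes called and 107 at an unadjusted p under 0.05) or by DESeq2 (0.0803% called). It did not pass without brain at 24 h replicate 2 either (2.04 ± 0.76, adjusted p = 0.808 by edgeR, 0.0508% called). Without replicate 1 it passed (2.08, adjusted p = 7.29e-04 by edgeR, 1.27% called), with 1 residual degree of freedom, and over all alternatives the estimate lay between 0.90 and 4.52. None of the other 8 members tested passed by edgeR or DESeq2. The neutrophil markers given above also differed between these libraries, from 50448 CPM in control pia to 23923 CPM in pia at 24 h; their part in the Slc7a11 levels was not tested. After thinning to 1000 UMIs, 55.3% (44.1 to 66.1%) of Granulo_1 cells in brain at 24 h replicate 1 had a Slc7a11 UMI and 12.3% (7.96 to 17.9%) in replicate 2, or 74.4% and 31.4% unthinned, whereas 0 of 55 and 0 of 375 lymphoid cells did, which allows shares of up to 6.49% and 0.979%. Slc7a11, Slc40a1 and Tfrc were too low in lymphoid cells to be tested.

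At 72 h the brain levels of Slc7a11 given here were lower than at 24 h. In the macrophage and microglia clusters they were also closer to control brain. The macrophage clusters had 34.2 CPM (interval 29.2 to 39.7 CPM), microglia 7.33 CPM and dendritic cells 18.5 CPM. By cluster, Macro_2 went from 1061 and 119 CPM at 24 h to 42.4 CPM, SAMC from 351 and 172 CPM to 26.5 CPM and Granulo_1 to 58.4 CPM. Granulo_2 had 255 CPM (212 to 304 CPM) at 72 h, and this interval overlapped that of replicate 2 (330 CPM, 287 to 379 CPM). Control brain had too few SAMC, granulocytes and dendritic cells for a comparison with it. The 72 h library was below both 24 h libraries in each of these clusters. Replicate 2 and the 72 h library share the gene list and the set of barcodes, and within that pair Slc7a11 went from 119 to 42.4 CPM in Macro_2, from 172 to 26.5 CPM in SAMC and from 143 to 58.4 CPM in Granulo_1. As 72 h has 1 library, the difference was not tested.

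Ferroportin had lower values at 24 h in the macrophage clusters of each tissue, but not in the microglia clusters of pia. Slc40a1 in the macrophage clusters was at 129 CPM in control brain, 41.1 CPM in control pia and 83.0 CPM in control dura, and at 49.1 and 27.9, 21.2 and 43.3 CPM at 24 h. Each 24 h library lay below the control of its own tissue, although the groups overlapped across tissues. For this and the other directions shared by all tissues given here, the share of all genes that agree in the same way was not counted. The log2 fold change of -1.33 ± 0.35 did not pass by edgeR (adjusted p = 0.945) and passed without brain at 24 h replicate 2 (-1.14 ± 0.17, adjusted p = 0.0325). At 72 h the level was 5.05 CPM. In these brain clusters other markers moved as well: the microglia list stood at 10112 CPM in control, 2473 and 577 CPM at 24 h and 266 CPM at 72 h, and the 5 monocyte markers (Ly6c2, Ccr2, Plac8, Chil3, Fn1) stood at 103, 130, 1337 and 1956 CPM in that order. Their part in the Slc7a11, Slc40a1 and Hmox1 levels was not tested.

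By cluster, CAM_1 had 155, 88.4 and 198 CPM in control brain, pia and dura and 42.6 and 66.6, 34.4 and 77.6 CPM at 24 h. CAM_2 had the highest single value, 427 CPM in control dura, and 114 CPM in dura at 24 h. In brain CAM_2 went from 117 CPM in control to 83.2 and 29.4 CPM at 24 h and 2.05 CPM at 72 h. Macro_2 was low throughout and in brain had 0 CPM in control, where 3 counts would be 48.4 CPM. At 24 h it had 12.6 and 6.61 CPM in brain, from 2 and 3 UMIs.

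Micro_1 had 156 CPM in control brain, 134 and 115 CPM at 24 h and 72.5 CPM at 72 h. In pia the values at 24 h were the higher ones in Micro_1, 107 CPM after 68.4 CPM in control, and Micro_3, 97.6 CPM after 64.4 CPM, and the lower one in Micro_2, 51.1 CPM after 130 CPM. These pia values rest on 34 and 25, 14 and 6, and 5 and 10 UMIs, and the intervals overlapped in each cluster. The microglia clusters together did not pass the test (log2 -0.80 ± 0.51), nor without replicate 2 (-0.51 ± 0.25, adjusted p = 0.283 by edgeR). Outside macrophages and microglia, Granulo_2 held 55.8 to 122 CPM, but Granulo_1, dendritic and lymphoid clusters had means between 0 and 3.50 CPM.

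The remaining 8 members did not pass in the comparisons of MCAO at 24 h with control with all libraries. Without replicate 2 the lowest adjusted p among them in macrophages was 0.120 (edgeR), that of Txnrd1. Fth1 in the macrophage clusters was at 3746 CPM in control brain and 13574 and 8724 CPM in brain at 24 h, at 8072 and 10400 CPM in pia and at 9703 and 10542 CPM in dura. In these sums Fth1 was thus higher at 24 h in every tissue, most in brain (log2 0.67 ± 0.53, adjusted p = 0.945 by edgeR). By cluster it was lower in Macro_2 of brain replicate 2, at 7912 CPM after 9108 CPM in control. It was also lower in CAM_2 of dura, at 9064 CPM after 10215 CPM. The other pairs of CAM_1, CAM_2 and Macro_2 were higher at 24 h. Hmox1 summed over the same clusters was higher at 24 h in each tissue too (log2 0.60 ± 0.33), with the widest step in pia, from 308 to 701 CPM. By cluster it was not higher in CAM_1 of brain replicate 1, at 143 CPM after 144 CPM in control. Nor was it in Macro_2 of dura, at 292 CPM after 316 CPM, whereas the other pairs were higher.

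Tfrc, the iron importer, was low throughout, with at most 31.2 CPM in the macrophage clusters. Its groups did not overlap (1.51 to 3.21 CPM against 3.67 to 31.2 CPM), as for 7% of genes tested, and the value of 31.2 CPM came from replicate 2, whose gene list also went with higher Tfrc in other clusters (log2 1.36 ± 0.71). For the other 5 members of the macrophage comparison, Ftl1 and Prdx1 among them, the log2 fold changes were between -0.01 and 1.21. Over all 10 members the median was 0.66, beside 0.04 for all genes tested. The members were chosen with earlier results of these data known, and the fit holds both gene lists, so these medians are descriptions only.

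In lymphoid cells edgeR called 0% of 7251 genes and DESeq2 called none, while 107 had an unadjusted p under 0.05 by edgeR. Of the members 7 were tested and their log2 fold changes lay between -0.31 and 0.43. Without replicate 2, 1.86% of genes were called and Ftl1 was the 1 member among them (log2 0.44 ± 0.09, adjusted p = 0.0101), after an estimate of 0.16 ± 0.55 with that library.

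The stroke-associated cluster SAMC had high ferritin levels at both times. It reached 30 cells in brain at 24 h (301 and 120 cells), brain at 72 h (485 cells) and pia at 24 h (95 cells), and in no control. Of its 5 markers (Spp1, Fabp5, Gpnmb, Lpl, Lgals3) all 5 were detected in each, with Spp1, osteopontin, at 16576 to 106398 CPM. Fabp5 and Gpnmb were at 17.3 and 10.8 CPM in brain at 24 h replicate 1 and at 7654 and 2707 CPM at 72 h. The study describes both genes as upregulated in this cluster at the later time. Whether the makeup of the cluster or the expression of its cells differed between these libraries was not tested. In pia the cluster also carried 3639 CPM of the border macrophage markers, against 9.74 to 803 CPM in brain. Hmox1 was at 187 and 349 CPM in brain at 24 h, 717 CPM at 72 h and 580 CPM in pia at 24 h. The thinned share of cells with a Hmox1 UMI was 14.4% (10.5 to 19.0%) and 12.2% (5.71 to 21.8%) at 24 h and 40.0% (35.6 to 44.6%) at 72 h, and 33.6%, 20.8% and 71.3% unthinned.

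Fth1, Gclm, Blvrb and Txnrd1 were, like Hmox1, higher in SAMC at 72 h than in either 24 h brain library, and Slc7a11 and Slc40a1 lower. Tfrc lay between the 24 h libraries. For this and the other comparisons of 72 h with 24 h given here, the share of all genes above or below both 24 h libraries was not counted. Fth1 was at 16282 and 10883 CPM in brain at 24 h and 22330 CPM at 72 h. Gclm was at 75.7 and 32.8 CPM in brain at 24 h and 174 CPM at 72 h, and Blvrb at 120 and 98.5 CPM and then 280 CPM. Txnrd1 had 64.9 and 164 CPM and then 190 CPM. Within the shorter gene list, from brain at 24 h replicate 2 to brain at 72 h, Ftl1 went from 7192 to 17368 CPM and Prdx1 from 776 to 2179 CPM. The same pair of libraries differed less in T cells, at 797 and 961 CPM of Ftl1 and 233 and 267 CPM of Prdx1. These directions were not particular to SAMC. Brain CAM_1 had Hmox1 at 143 and 200 CPM at 24 h and 382 CPM at 72 h. Its Gclm was at 67.9 and 49.9 and then 123 CPM, and its Blvrb at 75.3 and 95.7 and then 159 CPM. CAM_2 was higher at 72 h for Hmox1 and Blvrb but not for Gclm. Macro_2 was lower for Hmox1, at 120 and 112 and then 76.8 CPM. Slc7a11 and Slc40a1 were lower at 72 h in CAM_1 and CAM_2 too. All values at 72 h come from 1 library, so they are described and not tested.

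**Figure D5:**
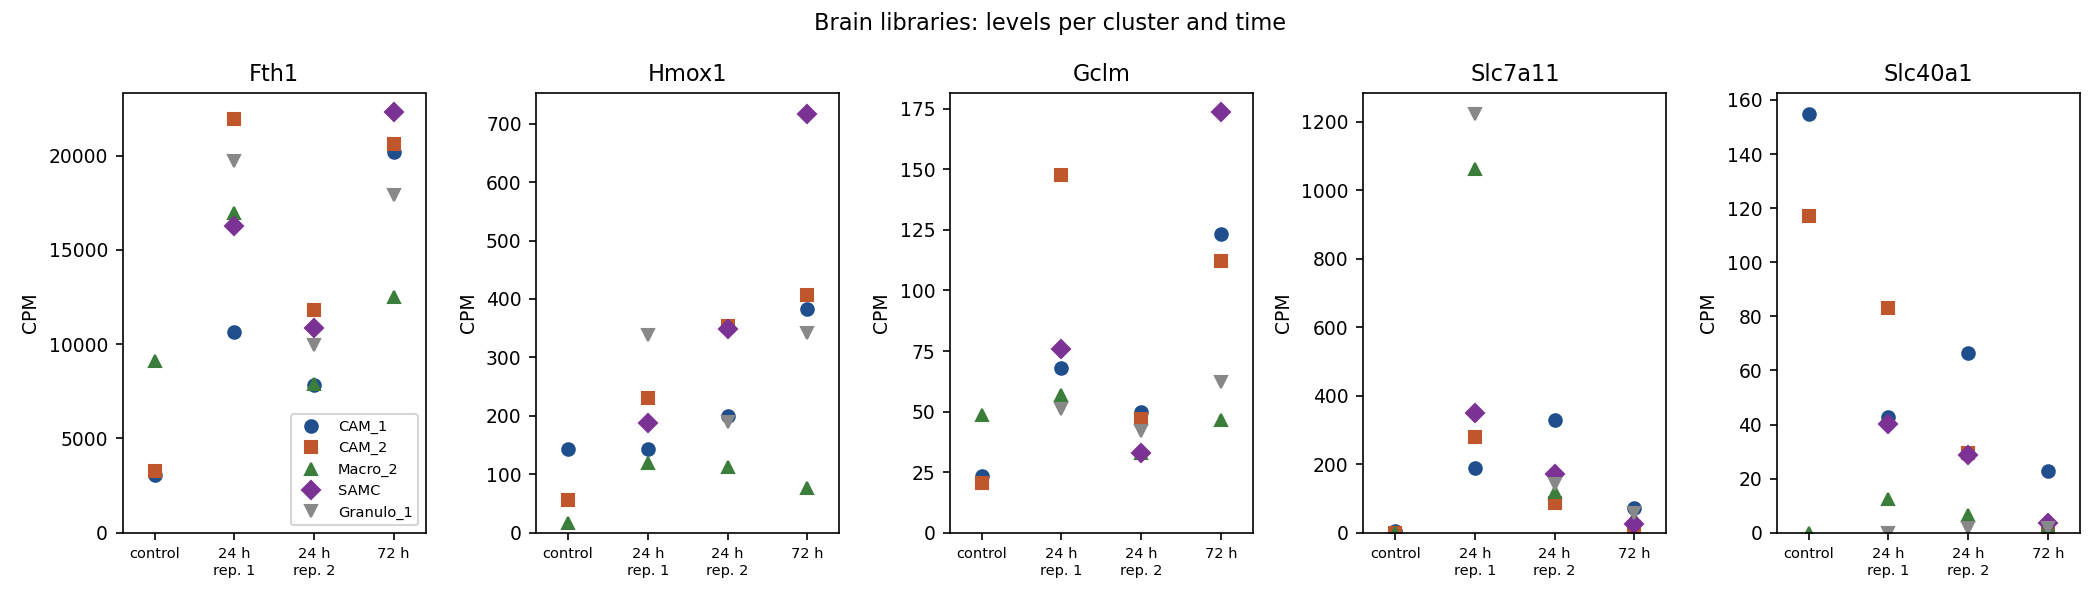
Fth1, Hmox1, Gclm, Slc7a11 and Slc40a1 in the brain libraries (x axis: control, 24 h replicate 1 and 2, 72 h), in CPM for CAM_1, CAM_2, Macro_2, SAMC and Granulo_1. Hmox1 and Gclm are highest in SAMC at 72 h, 717 and 174 CPM, whereas Slc7a11 is highest at 24 h. Slc40a1 is highest in CAM_1 and CAM_2 of control brain.

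CAM_2 and SAMC were among the 3 highest clusters for Blvrb, Prdx1 and Gclm. Blvrb had its highest means in CAM_2 at 226 ± 101.2 CPM, CAM_1 at 183 ± 105 CPM (both n = 8) and SAMC at 160 ± 82.1 CPM (n = 4). Prdx1 did in CAM_2 at 1990 ± 1116 CPM and SAMC at 1959 ± 1034 CPM, and Gclm in SAMC at 75.1 ± 70.0 CPM and CAM_2 at 62.4 ± 45.8 CPM, followed by proliferating cells at 59.1 ± 14.2 CPM (n = 3). Txnrd1 differed, with mDC2 first at 137 ± 32.9 CPM (n = 6), SAMC next at 122 ± 64.5 CPM and CAM_2 14th at 62.0 ± 68.5 CPM. In each case the leading clusters differed by less than their spread. In the dendritic cells Txnrd1 went from 89.3 and 63.5 CPM in control pia and dura to 111 and 116 CPM at 24 h, a difference that did not pass the test (log2 0.52 ± 0.54), nor without replicate 2 (0.56 ± 0.26, adjusted p = 0.390 by edgeR).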

How the data were processed

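Single-cell RNA was measured with 10x Genomics 3′ kits in 8 libraries. The deposited files hold UMI counts per gene and cell barcode, which the authors made with Cell Ranger 6.0 on mm10, without normalization. A further deposited file names the authors' cluster of each cell, after filters on genes and mitochondrial share, removal of doublets with scDblFinder and clustering in Seurat, per the study's methods. No further doublet caller was run. The members and gene lists were chosen with earlier results of these data known.

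Genes were matched by Ensembl ID over both gene lists. UMIs were summed per library and cluster, and CPM used all UMIs of shared genes as denominator (pandas 2.3.3). Sums of macrophage, microglia, dendritic, lymphoid and (added after seeing the data) granulocyte clusters of libraries with at least 30 cells were fitted in edgeR 4.0.16 (filterByExpr, TMM, robust quasi-likelihood test, terms for tissue and MCAO) over control and 24 h libraries, and called at an adjusted p under 0.05 over all genes tested; SE is the log2 fold change divided by the root of F. In macrophages, microglia and lymphoid cells 3 residual degrees of freedom remained, and 2 without brain at 24 h replicate 2. In dendritic cells and granulocytes these were 2 and 1. Without that replicate no tissue and time had more than 1 library. DESeq2 1.42.0 and the other alternatives are listed in the closing section. The fit was tested on simulated data. Named were all members, at most 4 called genes per list and comparison, and per member (Fth1, Hmox1, Slc40a1) the 3 genes of most similar pattern; Cd163 was added after its values were seen.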

Additional observations from a re-analysis of the deposited data

Results flagged for a closer look

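Prdx1 in the microglia clusters moved in opposite directions in the meninges. Pia at 24 h stood above control pia by 0.66 on the log2 scale, and in dura the difference was -0.67, each beyond the exact Poisson intervals of the single libraries. The difference between tissues was not tested, and the dura cells of these clusters carried more border macrophage than microglia markers.

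Of the 36854 barcodes, 4397 have no cluster in the deposited annotation and entered no comparison. Slc7a11 was the 1 member that stood above the control of its tissue in them in every 24 h library, beyond counting error. It was at 150 and 22.3 CPM in brain, 210 CPM in pia and 82.8 CPM in dura, against 7.58, 30.2 and 17.9 CPM in control brain, pia and dura. What these barcodes are was not examined.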

How the results depend on the processing

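Each of the 7 comparisons was refitted under its alternatives and counted by the members called. For MCAO at 24 h in macrophages (0 called), DESeq2 and no filter on low counts each called 1, Slc7a11. The calls over all genes were 13 higher and 3 lower of 9486 by DESeq2 and 56 and 17 of 16647 without the filter. Leaving out single libraries gave 0 to 2. Of these fits only the 1 without brain at 24 h replicate 2 called any gene, 88 higher and 81 lower of 9421. In microglia (0) DESeq2 called 1 and single libraries left out gave 0 to 1. In dendritic cells (0) no filter called 1, beside 4 higher and 3 lower of 14082 genes. There mDC2 only called 1 too, beside 56 higher and 57 lower of 6360 genes. Single libraries left out gave 0 to 1 in dendritic cells, and also in lymphoid cells (0). In granulocytes, a comparison added after seeing the data (0), they gave 0 to 1, and the other alternatives 0. For meninges against brain (2 called), library size scaling called 1, brain and pia only 0, the fit with brain at 72 h 1, and CAM_2 and Macro_2 only 0; single libraries left out gave 0 to 4. Dura against pia stayed at 0. Ftl1 in lymphoid cells (log2 0.16) turned to -0.11 in Tc only and ranged from -0.36 to 0.44 with single libraries left out. The cause was not tested in these cases. Slc7a11 stayed positive in macrophages, microglia and dendritic cells under all alternatives. Scaling by library size alone moved the median of all genes in the meninges comparison from -0.14 to -0.58 and the calls from 192 higher and 154 lower to 135 and 479; Hmox1 and Blvrb kept their direction. DESeq2 called 1015 genes there against 346, and 16 and 7 against 0 for MCAO in macrophages and microglia. No paired analysis was possible because only brain at 24 h carried replicate numbers. Mean levels in the highest cluster of each member moved by less than the SD between libraries when at least 10 cells were asked for, when CPM was averaged over cells and when cells were thinned to 1000 UMIs. By averages over cells the highest cluster became Granulo_2 for Fth1 and SAMC for Prdx1. With at least 10 cells it became CAM_2 for Gclm. For Tfrc, low everywhere, it changed under each of these alternatives. With 1 library per control tissue, the number of libraries limits every test.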

Other observations

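The genes whose levels ran most like those of a member over the 112 sums of cluster and library were found among 2985 genes with a mean of at least 50 CPM, by Pearson's r of log2(CPM + 1). For Fth1 they were Cstb, a cystatin that inhibits cathepsins (0.81), Plin2, which coats lipid droplets (0.80), and Gabarap, of the autophagy machinery (0.77). For Hmox1 they were the complement receptors C5ar1 (0.78) and C3ar1 (0.77) and the sugar epimerase Renbp (0.77), and for Slc40a1 they were the cyclooxygenase Ptgs1 (0.78), the receptor P2ry13 (0.76) and the lysosomal phospholipase Pla2g15 (0.73). The sums share libraries and depth, so these are descriptions.

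Without brain at 24 h replicate 2, some genes of the pathway lists were called between MCAO at 24 h and control by edgeR's quasi-likelihood test with adjustment over all genes. In macrophages these were 2 higher and 3 lower of 98 tested, beside 1.79% of all genes. Microglia had 4 higher and 3 lower of 82, beside 5.08% of all genes. Both fits had 2 residual degrees of freedom and no replicate libraries within a tissue and time. In the macrophage clusters Txnip, the thioredoxin inhibitor, fell by 1.52 on the log2 scale (adjusted p = 0.0122), Ncoa4, the receptor that sends ferritin to lysosomes, fell by 1.02 (adjusted p = 0.0373), and catalase, Cat, fell by 0.92. Gpx3 rose by 1.49 and Alas1, the first enzyme of heme synthesis, by 1.10. In brain Gpx3 was not higher, at 3.02 CPM in control and 1.38 CPM in replicate 1, from 2 and 3 UMIs. In the microglia clusters Txnip, Ncoa4 and the selenium carrier Selenop fell by 1.01, 0.99 and 1.26 on the log2 scale, and Srxn1, which restores oxidised peroxiredoxins, rose by 1.74 (adjusted p = 0.0224), as did Glrx (1.08) and Sod2 (0.81). The remaining gene called higher there, 1 of the heme list, is not named here. With brain at 24 h replicate 2 in the fit none of these genes was called. In it 3 of the values lay on the other side of control brain: Txnip in microglia stood at 885 CPM, against 436 CPM in control brain and 258 CPM in replicate 1, and at 782 CPM at 72 h; Alas1 in macrophages at 49.0 CPM, against 145 CPM in control brain; and Sod2 in microglia at 40.0 CPM, against 46.7 CPM. Srxn1 in the dura cells of the microglia clusters also went the other way, from 4 UMIs in control to 2 UMIs at 24 h.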
